A study of Mus musculus with 1 sample.

Results

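Some genes of the actin cytoskeleton were among the most abundant transcripts of alveolar macrophages (AMs), the macrophages that live in the airspaces of the lung. The set comprised 10 genes chosen by name, and all 10 were among the 11918 genes listed. They were the cytoplasmic actins Actb and Actg1, the monomer-binding genes Pfn1, Cfl1, Tmsb4x and Tmsb10, the genes for branched filaments Arpc1b, Arpc2 and Coro1a, and the capping gene Capg. The study asked what the histone deacetylase HDAC3 does in AMs, and its single-cell RNA-seq set out to find how varied AMs are. The library described here held lung AMs of 1 adult wild-type (WT) mouse, of FVB/NJ origin, backcrossed over 10 generations to C57BL/6, and 8 to 12 weeks old according to the labels. The study describes the mouse as Hdac3 fl/fl without Cre, and its methods give a wider age range and fewer generations for its mice. CD45+CD11c+SiglecF+ cells were sorted, 5000 of them were loaded on a 10x Genomics Chromium 3′ system, and 2055 cells were in the files. With 1 library there was no replicate, so every value below describes this mouse, intervals are 95% and cover counting error only, and no test was made.

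Actin monomers join into filaments that push the membrane forward, shape the phagocytic cup and carry cargo, and macrophages rebuild these filaments constantly as they crawl and engulf particles. Thymosins hold monomers in reserve, profilin hands them to growing filament ends, and cofilin severs old filaments to return monomers to the pool. The Arp2/3 complex starts new branches on existing filaments, coronins bind along them, and capping proteins stop growth at the fast-growing end.

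A unique molecular identifier (UMI) marks each captured transcript, and the whole UMI counts could be recovered from the deposited values. The library held 7222978 UMIs, between 1143 and 8603 per cell with a median of 3278. Every one of the 2055 cells carried UMIs of the AM markers Chil3 and Lyz2, 13 of 14 AM markers were listed, and none of the 4 T and NK cell markers was. Jchain, a plasma cell gene, had 1006 UMIs, and its list reached 2391 UMIs per 10000 in the highest cell. Although the authors describe a limit of 5% on mitochondrial content, 384 cells (18.7%) lay above it. Levels below are UMIs per 10000 UMIs of the cell, and because each transcript is counted once at its 3′ end they were not divided by gene length.

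Promoter sequence is shown for Actg1, Pfn1 and Cfl1. Actg1 is the actin gene that varied less than Actb. Pfn1 and Cfl1 are the pair of members with the highest uncorrected correlation, a lead that depended on the setting. The sequences are RefSeq windows on GRCm38.p6, from 250 bases before to 50 bases after the annotated start. Of the 10 members 9 had an entry, some of them several. The member without one was Actb, so its promoter was not searched for any motif. Capitals mark matches to motifs searched on both strands, the CArG box to which serum response factor (SRF) binds, GGGCGG (the GC box), CCAAT and TATAAA, and GC boxes that overlap run together.
Actg1, minus strand, chr11:120348446-120348745: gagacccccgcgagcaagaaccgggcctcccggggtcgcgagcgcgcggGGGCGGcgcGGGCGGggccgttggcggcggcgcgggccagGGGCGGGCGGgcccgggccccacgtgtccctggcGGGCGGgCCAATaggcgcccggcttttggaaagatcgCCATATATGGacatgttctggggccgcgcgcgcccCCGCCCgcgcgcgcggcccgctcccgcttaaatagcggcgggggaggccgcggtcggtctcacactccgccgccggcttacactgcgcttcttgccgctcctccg
Pfn1, minus strand, chr11:70654601-70654900: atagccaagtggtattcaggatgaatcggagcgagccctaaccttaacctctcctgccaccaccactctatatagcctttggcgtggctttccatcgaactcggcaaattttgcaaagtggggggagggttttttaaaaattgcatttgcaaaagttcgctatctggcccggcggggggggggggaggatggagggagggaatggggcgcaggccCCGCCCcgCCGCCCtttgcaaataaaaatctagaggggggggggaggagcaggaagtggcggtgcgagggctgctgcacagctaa
Cfl1, plus strand, chr19:5490205-5490504: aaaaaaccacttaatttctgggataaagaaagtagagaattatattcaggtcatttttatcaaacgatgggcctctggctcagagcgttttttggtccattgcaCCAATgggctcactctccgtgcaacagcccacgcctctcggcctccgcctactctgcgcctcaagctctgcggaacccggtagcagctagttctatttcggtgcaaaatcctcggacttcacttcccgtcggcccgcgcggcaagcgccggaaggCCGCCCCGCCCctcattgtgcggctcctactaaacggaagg
The Actg1 window held the only CArG box among the 9 members with an entry, at position -90 from the start, and 1.63% of 32851 promoter windows of this length held one. GGGCGG occurred in a window of 8 of the 9 members, against 35.7% of all windows, and CCAAT in 2, against 37.4%. TATAAA occurred in none of the 9, against 13.6%. A match describes these letters only.

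Together the 10 genes took 375802 UMIs, 5.20% of the library (exact binomial interval 5.19% to 5.22%). The share of a single cell ran from 1.11% to 15.2% with a median of 4.88%, and 90% of cells lay between 2.99% and 8.89%. Tmsb4x and Actb supplied most of it, followed by Tmsb10 and Pfn1.

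**Figure D1:**
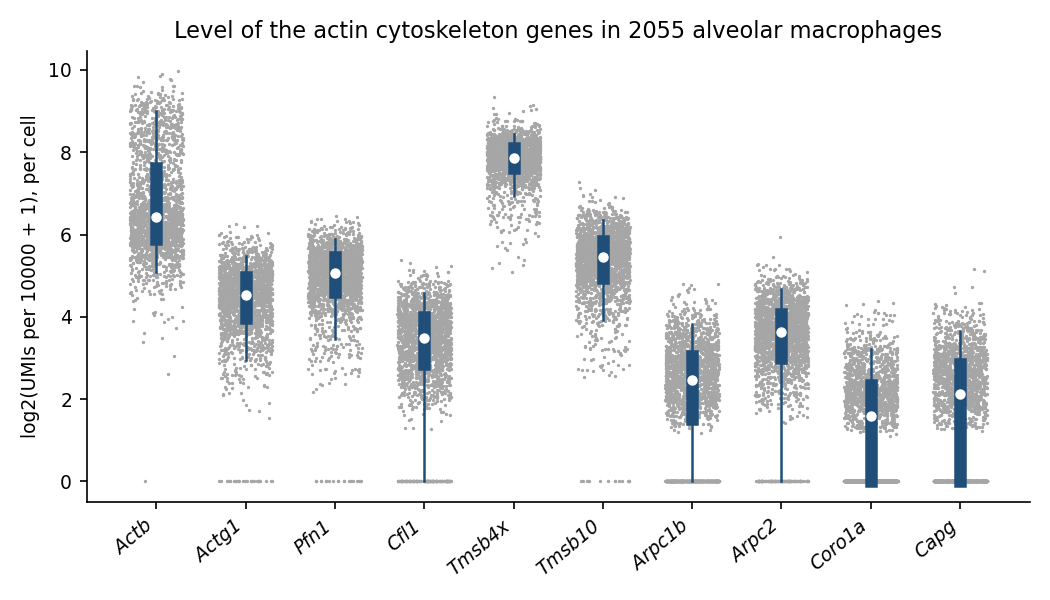
Level of each of the 10 genes in each of 2055 cells as log2(UMIs per 10000 + 1), with a grey point per cell, a white point at the median, a thick bar over the middle 50% of cells and a thin line from the 5th to the 95th percentile. Tmsb4x is highest with a median of 231 UMIs per 10000, and Actb runs from 33.2 to 514 between the 5th and the 95th percentile.

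Among the actin isoforms, Actb (chr5:142903115-142906754, minus strand, GRCm38) had 104729 UMIs and ranked 6th of all genes. Its level was 145 UMIs per 10000 over the library (144 to 146), and 2054 of 2055 cells had at least 1 UMI. Actg1 (chr11:120345690-120348542, minus strand), the other cytoplasmic actin, had 16713 UMIs, a level of 23.1 (22.8 to 23.5) and rank 54. Actb thus gave 86.2% of the UMIs of the pair (86.0% to 86.4%). The balance differed between cells, since Actb made up 58.2% of the pair at the 5th percentile of cells, 80.9% at the median and 97.2% at the 95th, and 29 cells had more Actg1 than Actb.

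The monomer-binding genes ran from rank 1 (Tmsb4x) to rank 128 (Cfl1) of all genes. Tmsb4x (chrX:167207093-167209315, minus strand), which encodes thymosin beta 4, ranked 1st of all genes with a level of 239 (237 to 240), was found in every cell and varied by a factor of 2.86 between the 5th and the 95th percentile of cells (121 and 346). Tmsb10 (chr6:72957347-72958748, minus strand), its relative, had a level of 44.5 and rank 15. Pfn1 (chr11:70651850-70654644, minus strand), or profilin, had a level of 34.2 and rank 21. Cfl1 (chr19:5490455-5495201, plus strand), the non-muscle cofilin, had a level of 11.3 (11.0 to 11.5) and was found in 93.5% of cells.

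The genes for branched filaments and capping were less abundant. Arpc2 (chr1:74236084-74268209, plus strand) and Arpc1b (chr5:145114215-145130705, plus strand), subunits of the Arp2/3 complex, had levels of 12.0 (11.7 to 12.2) and 5.04 (4.88 to 5.21). Capg (chr6:72544391-72562983, plus strand), the gelsolin-like macrophage capping protein, had a level of 4.09 and a UMI in 67.0% of cells, and Coro1a (chr7:126699773-126707787, minus strand), the coronin of leukocytes, had 2.54 and 55.7%. The order of the totals was Tmsb4x, Actb, Tmsb10, Pfn1, Actg1, Arpc2, Cfl1, Arpc1b, Capg and Coro1a. Neighbours in this order overlapped widely across cells, as for Arpc2 and Cfl1, where the middle 50% of cells lay between 7.03 and 15.9 and between 6.17 and 15.0. Reads of 98 bases near the 3′ end (within 300 bases of it) can come from more than 1 gene. By the annotated transcripts this held for 31.7% of such stretches of Actg1 and 25.5% of those of Tmsb10, mainly through pseudogenes, for 2.28% of those of Arpc1b and for none of the other 7, so the counts of Actg1 and Tmsb10 are the less certain.

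Spread beyond counting noise set Actb apart. This spread is given as an excess coefficient of variation (CV), the standard deviation over cells relative to the mean after the part that counting alone produces has been taken away. For Actb it was 0.969, larger than in each of the 100 genes nearest to it in UMIs (median 0.259), and 9th of the 720 genes with a UMI in at least 50% of cells. The other 9 members had values from 0.212 (Arpc2) to 0.411 (Capg), with a median of 0.263, against 0.276 over the 720 genes. Of the 100 genes nearest in UMIs, 21 had a larger value than Capg, 33 than Tmsb10 (0.328), 39 than Actg1 (0.302), 41 than Coro1a (0.326) and 46 than Pfn1 (0.263). The numbers were 59 for Cfl1 (0.248), 61 for Tmsb4x (0.239), 77 for Arpc1b (0.218) and 78 for Arpc2. Each of these 9 members thus lay among other genes of its abundance.

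The level of Actb fell into a larger group of cells and a smaller one. In bins of 0.25 log2 units, a main peak of 229 cells stood at 52.8 to 63.0 UMIs per 10000, the count fell to 54 cells at 180 to 214, and it rose again to 92 cells at 303 to 361. The middle of the low bin, 196 UMIs per 10000, was used to divide the cells; this dividing level and all values on its sides were chosen after the data were seen. Above it lay 510 cells, 24.8% of the total (Wilson interval 23.0% to 26.7%), with a median Actb level of 357, and below it 1545 cells with a median of 69.6. Within a factor of 1.2 of this level lay 114 cells (5.55%), and whether its sides are separate kinds of cells was not tested. The upper cells held 58.0% of all Actb UMIs. Had every cell carried the same share of Actb, counting would have put 1.19% of cells above 200 UMIs per 10000, and 506 cells (24.6%) were there. Within each side the excess CV of Actb was still 0.365 above and 0.444 below.

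**Figure D2:**
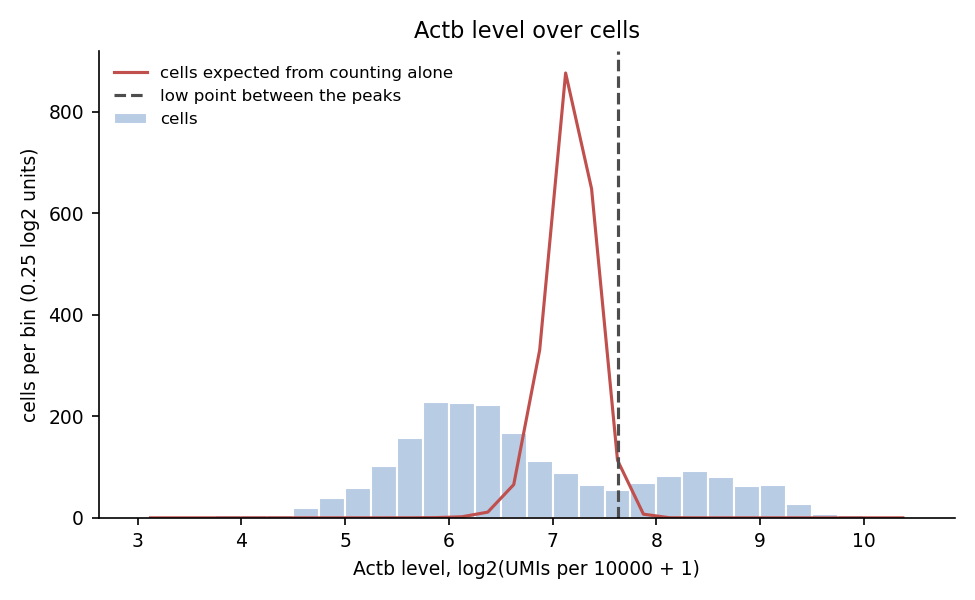
Number of cells (vertical axis) in bins of the Actb level, log2(UMIs per 10000 + 1) (horizontal axis), with the number expected if all cells shared 1 level and differed by counting alone (red line) and the low point at 196 UMIs per 10000 (dashed line). The cells form a peak at 52.8 to 63.0 and a lower one at 303 to 361, with the counting expectation between them.

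The other members did not follow Actb across this divide. With Actb UMIs left out of the totals, the level of Actg1 was 24.2 in the upper cells and 23.3 in the lower ones, a ratio of 1.04 (1.00 to 1.08). Tmsb4x stood at 243 and 242 (ratio 1.01), Tmsb10 at 46.1 and 44.9 (1.03), Pfn1 at 35.0 and 34.6 (1.01), Arpc2 at 12.4 and 12.1 (1.03) and Cfl1 at 11.9 and 11.3 (1.06). Arpc1b, Coro1a and Capg had ratios of 0.942, 1.01 and 0.917. None of the 9 was 25% higher or 20% lower, the sizes called large here, against 3% of the 1698 other genes with a UMI in at least 25% of cells. Over these genes the median ratio was 0.992 and 90% of genes lay between 0.876 and 1.15. The 9 ratios thus sat inside the range of most genes.

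Genes outside the set did follow Actb. Correlations are Pearson r over 2055 cells of residuals, the difference between the UMIs found and expected divided by the root of the expected; the cells share a library and their totals, and in sparse counts r is pulled towards 0. Of the genes with a UMI in at least 50% of cells, 719 were compared with Actb, with a median r of -0.024 and a 5th and 95th percentile of -0.076 and 0.037. Pim1, a survival kinase, had r = 0.504, and Srrm2, a scaffold of the splicing machinery, had 0.326. Rhoa, the GTPase that drives stress fibres and contraction, Iqgap1, a scaffold that crosslinks filaments, and Actr2, the Arp2 subunit of the Arp2/3 complex, followed with 0.209, 0.182 and 0.149. The remaining genes of the top 10 were Tubb5 (a tubulin), Gnb1 (a G protein subunit), Abcg1 (a cholesterol exporter), Klf13 (a transcription factor) and Picalm (a clathrin adaptor), with r between 0.116 and 0.0973. The lowest values belonged to B2m, Ear2, Chil3, Ctss and Cd9, from -0.118 to -0.108, genes of antigen presentation, secreted AM products, a cathepsin and a tetraspanin.

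A less abundant gene, Slc39a1, went with Actb more closely than Pim1 did. Among genes in at least 25% of cells, a limit at which the genes below were picked after their r was seen, Slc39a1, which encodes a zinc importer, had r = 0.619, and 0.929 after correction for counting noise (0.971 and 0.874 when the UMIs of each cell were split at random into 2 parts). Its level was 6.14 UMIs per 10000 above the Actb low point (5.75 to 6.55) and 0.945 below it (0.867 to 1.03), a ratio of 6.49, and it was found in 76.1% of the upper cells and 26.8% of the lower ones. No cell type that lacks these genes was in the library, so background from free RNA could not be measured. The ratio was 4.91 for Notch2, a receptor of cell contact signals, 4.00 for Pim1, 3.15 for the histone demethylase Kdm6b and 2.98 for Insig1, which restrains sterol synthesis. It was 2.46 for the galactosyltransferase B4galt1 and 2.44 for Srrm2. Of the 1698 genes, 13 had a ratio of 2 or more, 39 were at least 25% higher, 12 at least 20% lower and none at 0.5 or less, so the companions of Actb were few.

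Slc39a1, Pim1 and Notch2 were higher at the upper end of Actb. In 5 bins of 411 cells by Actb level, Actb itself stood at 40.7, 62.6, 86.6, 162 and 430 UMIs per 10000. Slc39a1 stood at 0.575, 0.735, 0.868, 2.42 and 6.68, and Pim1 at 2.01, 1.84, 1.99, 3.95 and 9.71. Notch2 stood at 0.434, 0.371, 0.666, 1.30 and 3.32. These genes were low over the lower 3 bins and highest in the top bin, while Actg1 went from 20.3 in the lowest bin to 25.7 in the middle one and 24.4 in the highest. Slc39a1, Pim1 and Notch2 had the highest r with Actb over the same cells, so their rise with the Actb level follows from that choice. The bins describe only where along the Actb level it lay. Within the upper cells alone r with Actb was 0.289 for Slc39a1 and 0.233 for Pim1, and within the lower cells 0.290 and 0.175. Among the 10 genes most correlated with Actb at the 25% limit, r ran from 0.0516 to 0.408 over 45 pairs, with a median of 0.153. They were picked by their r with Actb over the same cells, so positive r among them follows in part from that choice. No background of pairs at this limit was measured.

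**Figure D3:**
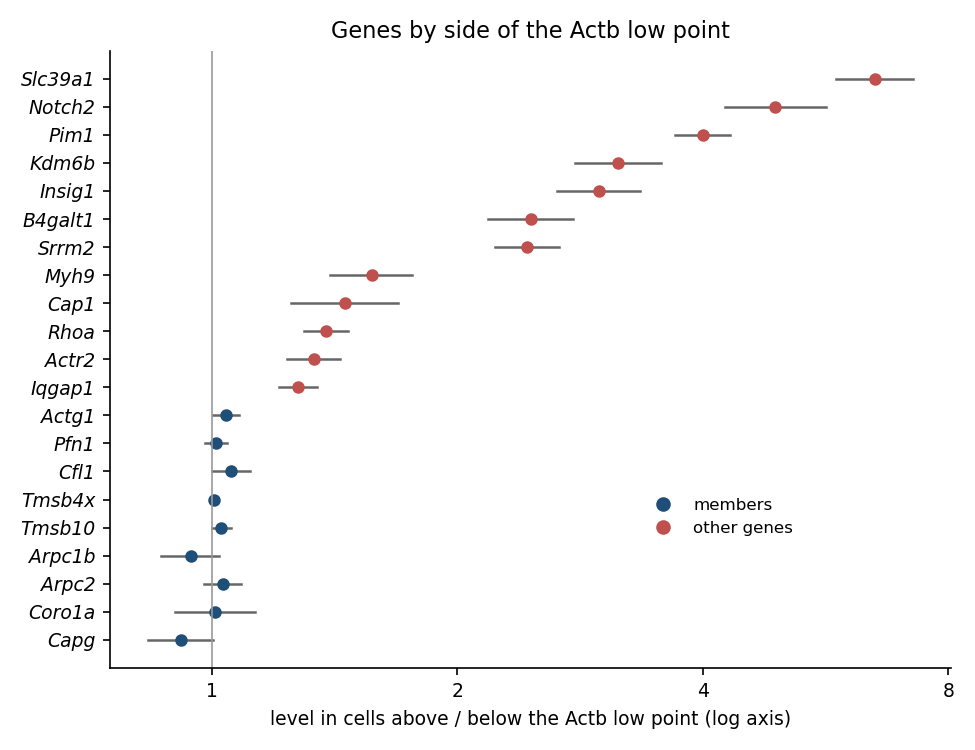
Level in the 510 cells above divided by that in the 1545 cells below the Actb low point (horizontal log axis), for the members other than Actb (blue) and for genes that go with Actb or belong to the wider actin list (red), with 95% counting intervals as lines. The 9 members lie between 0.917 and 1.06, and Slc39a1 is farthest out at 6.49.

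Depth moved with the Actb level. The upper cells had a median of 2891 UMIs and 1342 genes and the lower cells 3412 and 1487, with a median mitochondrial share of 3.11% and 3.23%. Of the fifth of cells with the fewest UMIs (1143 to 2242), 41.8% lay above the low point, against 15.8% of the fifth with the most (4748 to 8603) and 21.9% to 22.6% of the 3 between. Without the bin of fewest UMIs the share was 20.6%, and with each cell thinned to 2000 UMIs, which leaves out 299 shallower cells, it was 20.6% of 1756 cells. Inside each of the 5 depth bins the Slc39a1 ratio was still between 4.97 and 7.38 and the Pim1 ratio between 3.55 and 4.78. The part of depth in the share of upper cells was not tested. The AM markers summed to 371 UMIs per 10000 above the low point (78.0 to 1169 over cells) and 397 below it (57.3 to 1118). Of the listed epithelial markers the summed level was 3.46 and 3.52, mostly Epcam, and of the neutrophil markers 0.583 and 0.449, with 110 in the highest cell, which lay above the low point. The B and plasma cell list summed to 0.109 above and 1.79 below, where the Jchain-rich cell lay. The endothelial, fibroblast, monocyte and dendritic cell lists each summed to between 0.0128 and 0.0769 on either side.

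**Figure D4:**
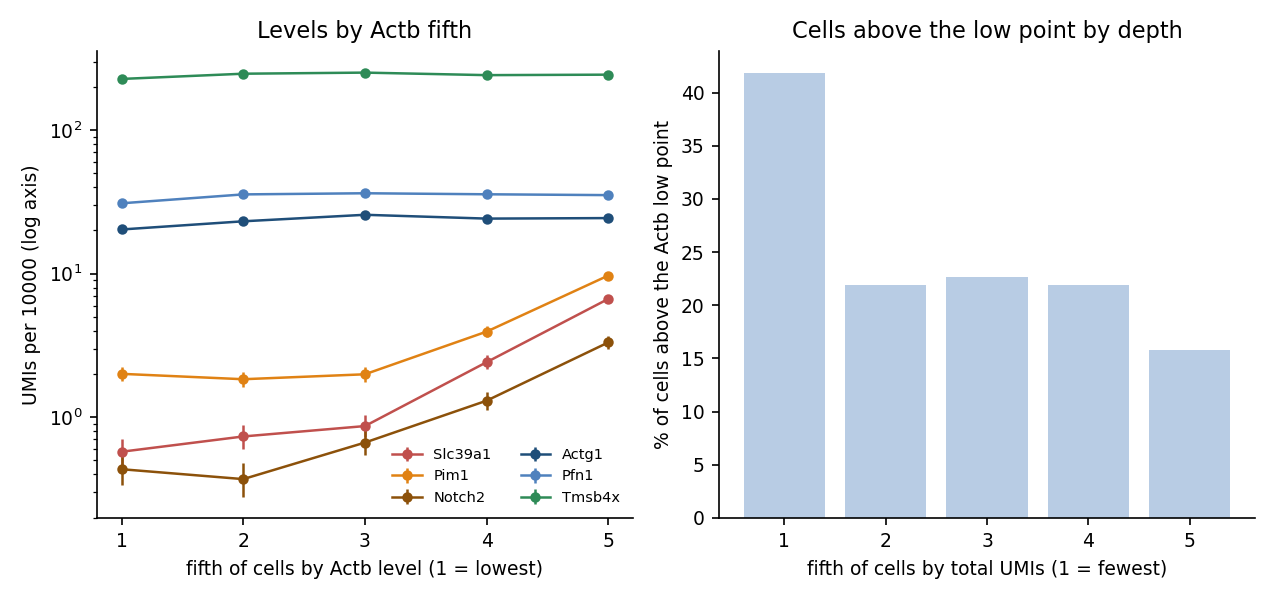
Left, levels (UMIs per 10000, log axis) of 6 genes in 5 bins of cells by Actb level, with 95% counting intervals. Right, the percentage of cells above the Actb low point in 5 bins by total UMIs. Slc39a1, Pim1 and Notch2 are higher in the upper 2 Actb bins while Actg1, Pfn1 and Tmsb4x stay close to level, and the shallowest depth bin has 41.8% of cells above the low point.

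The members went together weakly, and by r before correction for counting noise Actb and Arpc1b least. Over the 45 pairs the median r was 0.0441, against 0.000909 over all 258840 pairs of the 720 genes, and 39 pairs were above 0. Of the 45, 11 pairs (24.4%) exceeded 0.1, against 3.06% of all pairs, as a description of a list chosen by name. Pfn1 was in 6 of the 11, Tmsb10 in 4, Cfl1 and Tmsb4x in 3 each, and Actb and Arpc1b in none. Actb and Actg1, whose proteins are nearly alike, had r = 0.0469 (0.0921 after correction for noise), well short of Actb with Slc39a1. Over the 719 genes the 95th percentile of r with Actb was only 0.0371. Actg1 and Cfl1 (0.0441) lay above it and each other member below it. Within the upper and the lower cells alone, r with Actb was 0.101 and 0.0993 for Actg1 and 0.0909 and 0.118 for Pfn1. For Arpc1b it was 0.0664 and -0.043.

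By r before correction the closest pair was Pfn1 and Cfl1, which act in succession on actin monomers, with r = 0.244. After correction for noise it was 0.813, and 0.747 and 1.06 in the random parts; the correction can pass 1 where little spread is left, and the plain r was 0.136 at 2000 UMIs per cell. Tmsb4x and Tmsb10, the thymosins, followed with 0.234 (0.278 corrected), Pfn1 and Tmsb4x with 0.220, and Pfn1 and Tmsb10 with 0.205. Which of the 2 pairs led, Pfn1 with Cfl1 or the thymosins, depended on the setting. Without the cells above 5% mitochondrial content the thymosin value was 0.140 and that of Pfn1 and Cfl1 0.213. At 2000 UMIs the thymosin value was the higher one (0.185 against 0.136). The same held on the deposited log values (0.401 against 0.227), where Pfn1 and Tmsb4x had 0.382. Actg1 went most with Coro1a (0.105, 0.552 corrected), and its lowest pair was with Capg (-0.048). Arpc1b and Arpc2, subunits of the same complex, had r = 0.00844.

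**Figure D5:**
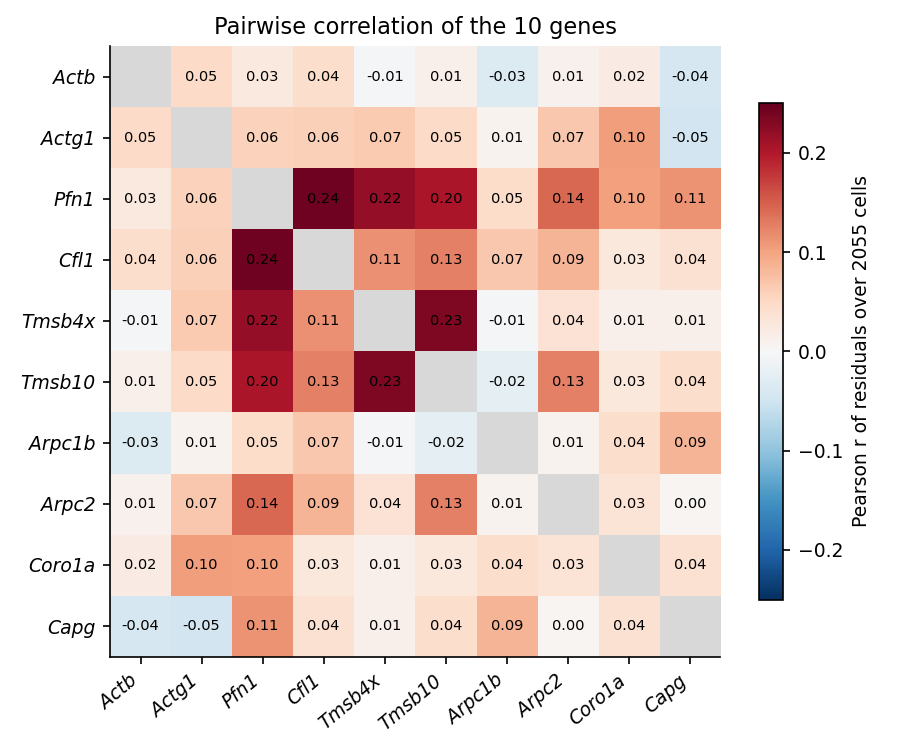
Pearson r of residuals over 2055 cells for each of the 45 pairs of members, in colour from -0.25 (blue) to 0.25 (red). The reddest block joins Pfn1, Cfl1, Tmsb4x and Tmsb10, led by Pfn1 and Cfl1 at 0.244, and the Actb row is pale.

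Each member had its own companions among the genes in at least 50% of cells. For Pfn1 they were Lgals3 (galectin-3, r = 0.246) and Myl6 (a myosin light chain, 0.228). Capg also led with Lgals3 (0.216), followed by the tetraspanin Cd9 (0.189). Actg1 went with Dstn, the cofilin relative destrin (0.166), and the adhesion receptor Cd44 (0.152), and ran against the lysozyme gene Lyz2 (-0.22). Tmsb10 went with the chemokine Ccl6 (0.232) and the ferritin chain Ftl1 (0.185), and Tmsb4x with Serf2 (0.206) and the respiratory chain gene Cox5a (0.184). Cfl1 led with Ftl1 (0.140).

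For the Arp2/3 genes and Coro1a the highest values were smaller, Arpc2 with Gm10116 (0.134) and the ferritin chain Fth1 (0.127), Arpc1b with the transcription factor Cebpb (0.110) and the lysosomal protein Cd68 (0.106), and Coro1a with Cst3, a cystatin (0.118), and Cotl1, an actin-binding protein of the cofilin fold (0.106). No gene was among the first 2 of both actins. The nuclear RNA Malat1 was the lowest gene for Tmsb4x (-0.33) and Pfn1 (-0.23), and mt-Atp6, a mitochondrial transcript, for Tmsb10 (-0.24) and Arpc2 (-0.19). All values are shares of a cell's total, of which these genes take a large part, and what that adds to the negative r was not tested.

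The other genes of the actin system were compared with Actb as a list. Of 114 genes sorted by role, 103 were listed and 30 had a UMI in at least 50% of cells. Of these 30, 23 had an r with Actb above the median of the 719 genes, 5 above their 95th percentile and none below the 5th. The number above the 95th percentile was 9 in cells with at most 5% mitochondrial content, where the number passing the 50% limit is not given. Among all genes with a UMI it was 10 of the 103 listed, a smaller share than 5 of 30. The 5 were Rhoa (3.78% of whose stretches near the 3′ end also occur in another gene), Iqgap1, Actr2, Cotl1 (0.0934) and Wdr1, a cofilin partner (0.0589). Over the whole list the summed level was 202 UMIs per 10000, below that of Tmsb4x alone.

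Among the roles, the other Arp2/3 genes had 5 of 7 in at least 50% of cells. Arpc5 was the most abundant (7.31 UMIs per 10000, r with Actb 0.0366), ahead of Actr2 (4.93). The bundling genes were led by Iqgap1 (10.2) and Lcp1, or L-plastin (5.59, r = 0.0202), and the cofilin pathway by Dstn (5.88, r = 0.0342) and Cotl1 (4.56). Capza2 (6.10, r = 0.0111) and Capzb (3.26, r = 0.0257), subunits of capping protein, led the capping genes. Myl6 (16.4, r = -0.040) and Myl12a (7.76, r = 0.0145), myosin light chains, went with Pfn1 instead (0.228 and 0.204). Vim, the intermediate filament gene vimentin (12.0, r = -0.036), and Msn, or moesin (3.71, r = 0.00975), led the linkers.

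The remaining roles were scarce. The WASP and WAVE list was led by Brk1 (2.73) and Abi1 (1.40), the formins by Diaph1 (1.85) and Fmnl1 (0.851), the tropomyosins by Tpm3 (1.89) and Tpm4 (1.36), the coronin relatives by Coro1b (1.06) and Coro1c (0.692), and the actin-related genes by Actr1a (0.314) and Actr1b (0.125). Acta2, the smooth muscle actin, had 8 UMIs in 8 cells. Picked after their values were seen, the non-muscle myosin heavy chain Myh9 and the cyclase-associated protein Cap1 had r with Actb of 0.186 and 0.101 and ratios of 1.57 and 1.46 across the Actb low point, Rhoa 1.38, Actr2 1.33 and Iqgap1 1.28. These ratios were all well below those of Slc39a1 and Pim1. Of 16 genes linked to SRF, 13 were listed and 3 were in at least 50% of cells, Tagln2 (r with Actb -0.0061), Flna (0.0296) and Fos (0.0217), all above the median and none above the 95th percentile.

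Cell groups set by other genes gave the members few large ratios. Over 8 groupings by state genes and 1 by depth, 6 of 90 ratios were large, 3 of them by depth, against 14.3% of 6447 ratios of all genes in at least 50% of cells. The count was 4 of 90 in cells with at most 5% mitochondrial content and 10 of 90 with all UMIs of the cell as the total. The share over all genes was not measured in these 2 settings, so these counts cannot be set against 14.3%. The share of all genes with a large ratio was 2.09% for the chemokine and TNF grouping, 22% for lysosome and lipid genes and 30.4% for depth. Cells positive for chemokine and TNF genes (1019 cells, at least 3 UMIs over at least 2 genes; Cxcl2 was the most abundant) had 126 UMIs of Actb per 10000, against 170 in the 1036 others, a ratio of 0.744 (0.735 to 0.753). Actg1 had a ratio of 1.01 in the same cells. The positive cells were deeper (median 3752 against 2846 UMIs), and at 2000 UMIs in every cell the Actb ratio was 0.822, no longer large. Actb was also lower in the fifth of cells highest in lysosome and lipid genes (126 against 163, ratio 0.775), where Capg was higher (4.62 against 3.46, ratio 1.34), with a median mitochondrial share of 3.80% against 2.95%. The Actb ratio there was 0.842 at 2000 UMIs and 0.849 in cells with at most 5% mitochondrial content, and the Capg ratio 1.32 and 1.37. The part of mitochondrial content in them was not tested otherwise.

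By depth, Actb went from 206 UMIs per 10000 in the fifth of cells with the fewest UMIs to 121 in the fifth with the most, while Pfn1 went from 27.7 to 34.9 (ratio 1.26) and Capg from 3.38 to 4.24 (ratio 1.26). In cells with at most 5% mitochondrial content these last ratios were 1.11 and 1.14, no longer large. Tmsb4x went from 203 to 242, a ratio of 1.19. The shift in Actb lay in the outer bins, since the 3 between ran from 148 to 149. No member had a large ratio by MHC class II, S phase or G2/M genes, where 0.556%, 2.08% and 2.92% of all genes did. The MHC class II ratios ran from 0.888 to 1.06 (Cd74 was the most abundant of its list). Actb had 0.815 by S phase genes (Pcna) and 0.845 by G2/M genes (Hmgb2). Positive cells were deeper in these groupings too, with medians of 3942 against 2980, 4451 against 2975 and 4399 against 2961.5 UMIs. The part of depth in these Actb ratios was not tested. No member had a large ratio by the 3 groupings below either. There 17.4% of all genes did by immediate early genes, 20.4% by mitochondrial RNA and 30.8% by nuclear RNAs. By immediate early genes (Fos) the lowest ratio was that of Tmsb10 (0.809), with Pfn1 at 0.828 and Actg1 at 1.18. By mitochondrial RNA the lowest were Tmsb10 (0.821) and Arpc2 (0.824), and by the nuclear RNAs Malat1 and Neat1 they were Tmsb4x (0.819) and Pfn1 (0.825), where Actb had 1.11.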

How the data were processed

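Reads were aligned to mm10 and counted in Cell Ranger (v2.1), and Seurat scaled the UMIs of each cell to 10000; the authors deposited these values as natural logs with 1 added, which were used here. The authors also deposited a scaled score per gene and cell (regressed on UMIs and mitochondrial content), used only as an alternative. They describe limits on genes per cell against doublets; no doublet caller was run here. UMI counts recovered from the deposited log values were whole in 100% of cases (tolerance 0.01). Expected counts were each gene's share of all UMIs times the cell's total. Groups by state genes compared the outer 2 of 5 equal bins of cells, or cells having or lacking at least 3 UMIs over at least 2 genes, with the listed genes left out of the total; a level 25% higher or 20% lower was called large. The members and gene lists were chosen with earlier results of these data known. Named genes were the members, the 10 highest and 5 lowest by r with Actb, the first 2 for each other member, the 2 most abundant of each role and the most abundant of each state list; others are said to be picked later. A few results that this rule would name are not reported here. Positions and transcripts are from GENCODE M21. Measures were tested on simulated data. Python 3.11.15, numpy 2.4.6, scipy 1.17.1 and pandas 2.3.3 were used.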

Additional observations from a re-analysis of the deposited data

How the results depend on the processing

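The summed share of 5.20% was 5.32% in cells with at most 5% mitochondrial content, 5.25% without the deepest cells, 5.32% without cells carrying S or G2/M genes, 5.22% at 2000 UMIs and 5.26% as a mean over cells; the counting interval is narrower than all but the smallest of these shifts. The median excess CV ran from 0.268 to 0.290 and that of Actb from 0.963 to 1.02 over 7 alternatives. The median r of the pairs, 0.0441, ran over 10 alternatives from 0.0283 in a random part of the UMIs to 0.0697 on the deposited scores. It was 0.0682 on the deposited log values and 0.0340 at 2000 UMIs. Of the 10 genes that go with Actb, 6 were again among the first 10 at 2000 UMIs and 6 in each random part of the UMIs. Fewer UMIs can put a gene below the limit on detection, and how many of the 10 still passed it there is not given. These counts thus cannot show how many genes lost their place by r. At a limit of 75% of cells the number was also 6, the most possible. Pim1 (54.7% of cells), Srrm2 (57.6%), Tubb5 (54.0%) and Klf13 (65.0%) were below that limit. The number was 2 at a limit of 25% or with no limit, where more genes were compared. The wider actin genes above the 95th percentile numbered 9 in cells with at most 5% mitochondrial content, against 5 of 30. With no limit they numbered 10 of 103, a smaller share. Large ratios of members over cell groups numbered 10 of 90 with all UMIs of the cell as the total, against 6 of 90. The share over all genes was not measured with that total. Alternatives added after the data were seen put 28.0% of cells above the Actb low point without cells carrying S or G2/M genes, 20.6% at 2000 UMIs and 20.6% without the bin of fewest UMIs, against 24.8%, while the Slc39a1 ratio stayed between 6.35 and 6.74. None of the values tracked here changed direction, but pairs with r near 0 did, as Actb with Tmsb4x, which went from -0.0055 to 0.0557 on the deposited log values. A median cell of 3278 UMIs limits genes such as Coro1a, found in 55.7% of cells, and 1 library leaves the spread between mice unmeasured. No paired analysis was possible because there is 1 sample.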
